A study of Mus musculus with 24 samples.

Results

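The genes described here are 9 that act in the processing, sorting and clearance of the amyloid precursor protein or carry inherited risk of Alzheimer disease in humans. They are the precursor App and its relatives Aplp1 and Aplp2, the proteases Bace1 and Psen2, the sorting and endocytosis genes Sorl1, Picalm and Bin1, and the secreted chaperone Clu. They were chosen by symbol, with earlier results of these data known. All 9 were found among the 37991 Ensembl gene identifiers of the count files and were tested. Messenger RNA was sequenced from the cerebellum of male mice of the inbred strain C57BL/6J, young adults of 7 weeks and aged animals of 79 weeks, in 2 libraries for each age. No treatment or genetic change is given in the labels for either age. The other 20 of the 24 samples, which are genomic DNA libraries from cerebellum and cortex, were not analysed here.

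Of the 9 genes, Bace1 fell and Clu rose between 7 and 79 weeks, and the other 7 did not pass the test. Bace1, the enzyme that makes the first amyloid-forming cut in App, was 27.6% lower in old cerebellum, and Clu, an extracellular lipoprotein chaperone, was 38.2% higher. A gene was called when its adjusted p in edgeR's quasi-likelihood test, by the Benjamini-Hochberg method over the 15292 genes tested, was under 0.05. By that rule 8.84% of all tested genes were called, 4.17% higher and 4.68% lower at 79 weeks, against 2 of the 9 genes. These shares are the comparison for every count of called genes or markers below. The App transcript itself stood at 1551 ± 56.2 CPM (SD, n = 2) at 7 weeks and 1389.8 ± 6.71 at 79 weeks, a difference that missed the threshold (adjusted p = 0.138).

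App is a membrane protein of neurons and many other cells. In the amyloid-forming route beta-secretase, encoded by Bace1, sheds its outer part, and gamma-secretase, whose catalytic subunit is a presenilin, as encoded by Psen2, then cuts the remaining stub within the membrane and frees the amyloid-beta peptide. In the other route an alpha-secretase such as Adam10 cuts inside the amyloid-beta stretch. The sorting receptor encoded by Sorl1 steers App away from the compartments where Bace1 acts, clathrin adaptors such as Picalm bring it in from the cell surface, and secreted carriers such as Clu and Apoe bind the peptide. The rodent peptide differs from the human one, and wild-type mice do not form plaques, so the ages compared are those of normal ageing and not of a disease model.

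Reads assigned to genes numbered 16367656 and 21124608 in the young libraries and 18901921 and 22826993 in the old ones. Levels are CPM, read counts relative to library size after TMM scaling. Since no transcript lengths were available, they were compared between ages and not between genes, except in the coarse check of the tissue below. Whether the 2 libraries of an age are from different animals is not in the labels, so the p-values rest on a spread between libraries that may be technical. As a check of the labelled tissue, the 10 granule neuron markers summed to 5589 to 6995 CPM over the libraries and the 10 Purkinje cell markers to 11110.3 to 12782 CPM, while 6 markers of forebrain cortex neurons, 5 of which also passed the low-count filter, summed to 73.8 to 114 CPM. One library stood apart. Choroid plexus markers summed to 5429 CPM in 79-week replicate 1, against 41.5 in 79-week replicate 2 and 17.9 and 32.1 in the 7-week libraries. Fold changes without that library are given for Bace1, Clu, Sorl1, Bin1, Aph1c, Hip1 and Adamts4, and not for every gene that moved with it. Without 7-week replicate 1 edgeR called 0 of 16175 genes, where DESeq2 called 235 and 2610 had an unadjusted edgeR p under 0.05, and so no call given here survived that omission in edgeR.

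**Figure D1:**
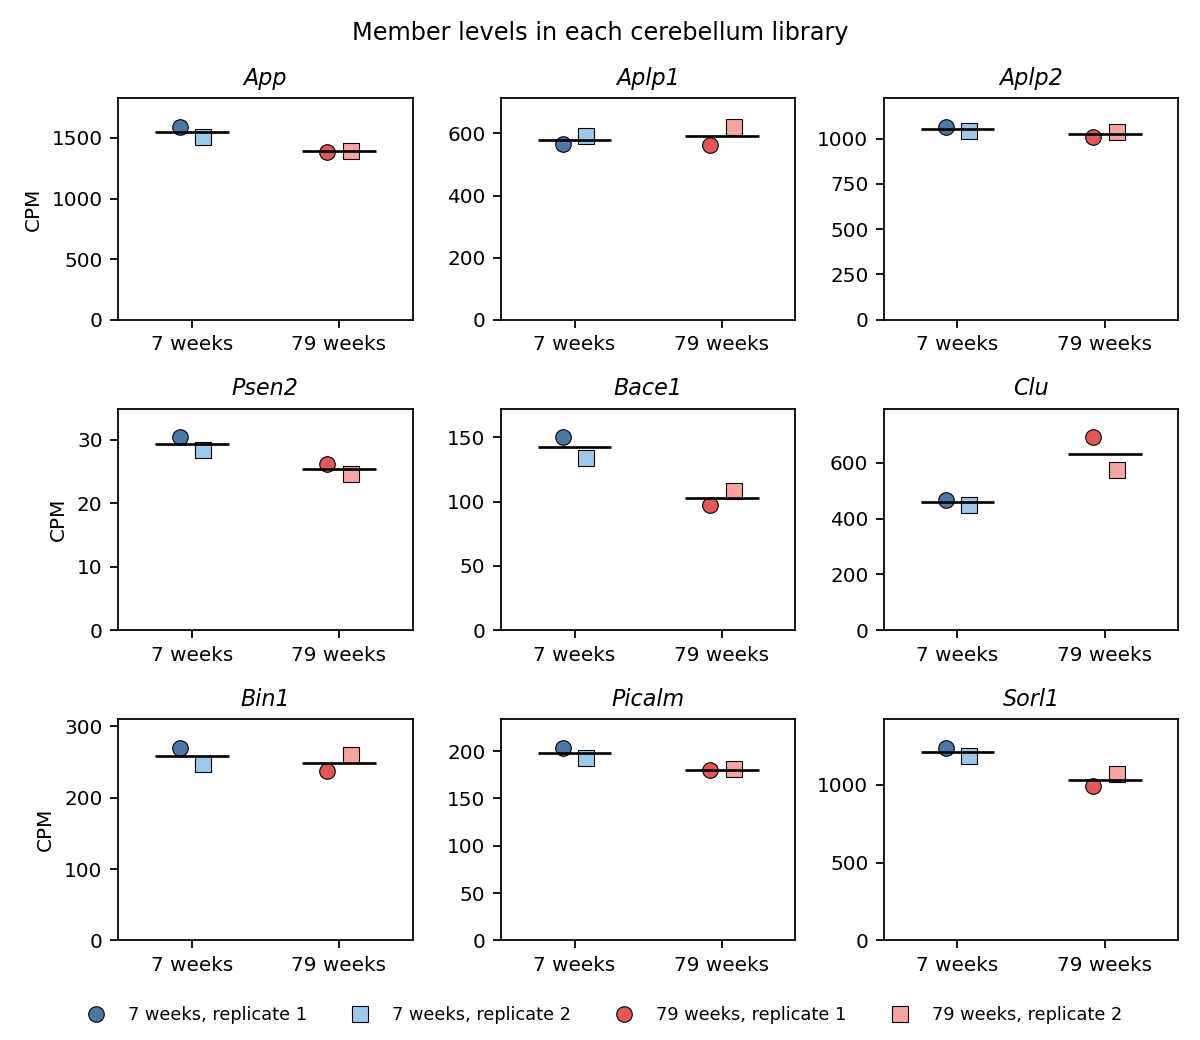
Level of each gene in CPM (vertical axis, from 0) in the 2 libraries at 7 weeks (blue) and the 2 at 79 weeks (red), with circles for replicate 1, squares for replicate 2 and black lines for the means. Bace1 stands at 134 and 150.0 CPM at 7 weeks and at 97.2 and 108 at 79 weeks, Clu rises from 449.9 and 466 to 573 and 691, and Aplp1 and Bin1 have ages that overlap. The other 7 do not, like 57.7% of all tested genes.

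App and its relatives are substrates of the secretases. App was at 1591 and 1511 CPM in the 7-week libraries and at 1385 and 1395 CPM in the 79-week libraries. Both old libraries were thus below both young ones, and they were 9.49 CPM apart from each other. Non-overlap of the ages was common, as 57.7% of all tested genes showed it. The log2 fold change was -0.16 (SE 0.06), a change of -10.3% with a 95% interval of -18.5% to -1.39%, and it was not called (edgeR adjusted p = 0.138). In 13 alternative settings the log2 fold change of App ran from -0.20 to -0.10, and none of these settings called it.

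Aplp1, a relative of App found mostly in neurons, was at 567 and 593 CPM at 7 weeks and 563 and 621 CPM at 79 weeks. Its old libraries fell on either side of the young ones. The log2 fold change was 0.03 (SE 0.07, edgeR adjusted p = 0.822), with a 95% interval of -0.13 to 0.19. Aplp2, the relative that is expressed across most tissues, was at 1065 and 1044 CPM at 7 weeks and 1012 and 1035 CPM at 79 weeks. Its ages did not overlap, but the nearest libraries were 8.77 CPM apart. The log2 fold change was -0.04 (SE 0.06, adjusted p = 0.686), with an interval of -0.18 to 0.09. For Aplp1 and Aplp2 alike, a change as large as that of Bace1 or Clu lay outside the interval. Their direction was not fixed, since Aplp2 was at 0.01 with library size scaling and Aplp1 at -0.05 without 79-week replicate 2.

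The bases just before the starts of these 3 genes are shown because they let the family be compared at its promoters, which the read counts alone do not describe. They are the 250 bases upstream of the RefSeq start in build GRCm38.p6, on the gene's strand, with each GGGCGG or its complement CCGCCC, the GC box bound by Sp1-type factors, in capitals. The App window is chr16:85173708-85173957 on the minus strand, that of Aplp1 is chr7:30445583-30445832 on the minus strand and that of Aplp2 is chr9:31211849-31212098 on the minus strand.
App: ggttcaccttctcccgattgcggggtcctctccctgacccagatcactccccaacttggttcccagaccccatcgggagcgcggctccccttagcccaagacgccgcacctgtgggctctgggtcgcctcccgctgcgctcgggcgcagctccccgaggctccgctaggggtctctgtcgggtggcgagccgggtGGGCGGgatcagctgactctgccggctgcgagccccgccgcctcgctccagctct
Aplp1: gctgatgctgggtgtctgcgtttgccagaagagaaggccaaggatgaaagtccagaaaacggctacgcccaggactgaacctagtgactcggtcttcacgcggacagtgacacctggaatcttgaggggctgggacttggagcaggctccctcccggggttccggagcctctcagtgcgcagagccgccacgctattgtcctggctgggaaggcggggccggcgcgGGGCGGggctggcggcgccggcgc
Aplp2: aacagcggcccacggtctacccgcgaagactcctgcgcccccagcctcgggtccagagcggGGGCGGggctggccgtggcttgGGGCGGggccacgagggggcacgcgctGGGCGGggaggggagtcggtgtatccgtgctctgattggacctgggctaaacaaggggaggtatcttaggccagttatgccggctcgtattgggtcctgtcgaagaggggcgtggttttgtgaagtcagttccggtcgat
App and Aplp1 each held 1 GC box and Aplp2 held 3. Among 32851 windows of that length in the RefSeq table, 32.7% held at least 1 on either strand and 8.47% held at least 3. No TATAAA was found in the 3 windows on either strand, against 12.4% of all windows that held it. The windows held 23, 20 and 22 CpG dinucleotides for App, Aplp1 and Aplp2, where the median window held 6. Of the other genes, Psen2, Picalm and Sorl1 also had windows in the table. These matches are a description of the letters, and methylation at these bases was not analysed here.

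Bace1 encodes beta-secretase. It was at 150.0 and 134 CPM at 7 weeks (2409 and 2786 reads) and at 97.2 and 108 CPM at 79 weeks (1880 and 2509 reads). The highest old library was 26.0 CPM below the lowest young one. Bace1 fell from 142 ± 11.1 to 103 ± 7.84 CPM (SD, n = 2 per age), with a log2 fold change of -0.47, a standard error of 0.08 and an adjusted p of 0.0149 in edgeR's quasi-likelihood test. The 95% interval of the change was -35.9% to -18.1%. Of all tested genes, 15.8% had a larger change in either direction. In bulk tissue, fewer cells of a type and less RNA per cell cannot be told apart.

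The size of the Bace1 fall and its call depended on the libraries kept. Without 7-week replicate 1 the log2 fold change was -0.39 and without 7-week replicate 2 it was -0.55, and edgeR called neither (adjusted p = 0.149 and 0.0599). It was called without 79-week replicate 1, at -0.39, and without 79-week replicate 2, at -0.55 (edgeR adjusted p = 0.00435 and 0.00012). Bace1 shares its RefSeq span in part with Rnf214, and whether the counting used strand is not given in the sources used here. Rnf214 was at 80.1 ± 2.55 and 73.0 ± 5.78 CPM (SD, n = 2) and was not called (log2 fold change -0.13, edgeR adjusted p = 0.292). Bace2, the other beta-secretase gene, was at 2.63 ± 0.51 and 2.36 ± 0.20 CPM and was not called (edgeR adjusted p = 0.791), with a 95% interval of -0.80 to 0.51 that holds the change of Bace1.

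Markers of several cell types were lower at 79 weeks, like Bace1, while those of microglia, given below, were higher. Bace1 and the myelin and Purkinje cell sums were lower in 79-week replicate 1 than in replicate 2. The granule neuron sum was higher in replicate 1. Of 12 markers of myelinating oligodendrocytes 6 fell and 0 rose, and their summed level was 6498 and 6122 CPM at 7 weeks and 3904 and 5469 CPM at 79 weeks. Of 10 Purkinje cell markers 5 fell and 0 rose, and their sum was 12165 and 12782 CPM at 7 weeks and 11110.3 and 11305 CPM at 79 weeks. Of 10 granule neuron markers 5 fell and 0 rose, from sums of 6995 and 6933 CPM to 5845 and 5589 CPM. Of all tested genes 4.68% were called lower and 4.17% higher. No marker in these 3 lists was at 0 in all libraries. Their part in the Bace1 result was not tested.

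Psen2 encodes a presenilin, the catalytic part of gamma-secretase. It was at 30.4 and 28.4 CPM at 7 weeks and 26.2 and 24.7 CPM at 79 weeks, from 488 to 589 reads per library. The old libraries lay below the young ones, by 2.18 CPM at the nearest pair. The log2 fold change was -0.21 (SE 0.09), with a 95% interval that reached from -0.41 to just under 0, and it was not called (edgeR adjusted p = 0.186).

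Among 7 subunit genes of gamma-secretase 1 rose, 0 fell and 6 were not called, where 8.84% of all tested genes were called. Their median log2 fold change was -0.03, against 0.01 over all tested genes. The gene that rose was Aph1c, which encodes a scaffold subunit, from 5.72 ± 0.18 to 11.7 ± 2.69 CPM (SD, n = 2; log2 fold change 1.03, SE 0.20, edgeR adjusted p = 0.0233). Without 79-week replicate 1 its log2 fold change was 0.78. Aph1c is a rodent copy of Aph1b with a very similar sequence, and reads that aligned to more than 1 place were not counted, so the division of reads between them is uncertain. Aph1b stood at 51.4 ± 2.49 and 44.1 ± 0.60 CPM and was not called (edgeR adjusted p = 0.108). The sum of the pair was 55.5 and 58.7 CPM at 7 weeks and 57.3 and 54.4 CPM at 79 weeks, so that the ages overlapped for the sum.

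The alpha- and beta-secretases and other shedding proteases had 0 higher, 1 lower and 5 not called of 6, where 8.84% of all tested genes were called. Bace1 was the gene that was lower, and the median log2 fold change was -0.10. Adam10, the main alpha-secretase of neurons, was at 106.3 ± 0.59 and 107 ± 0.69 CPM (SD, n = 2; log2 fold change 0.02, 95% interval -0.10 to 0.14, edgeR adjusted p = 0.868). Adam9, a related metalloprotease, was at 63.2 ± 1.82 and 54.5 ± 0.38 CPM and was not called (log2 fold change -0.21, edgeR adjusted p = 0.0901). The interval of Adam10 did not reach the change of Bace1.

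**Figure D2:**
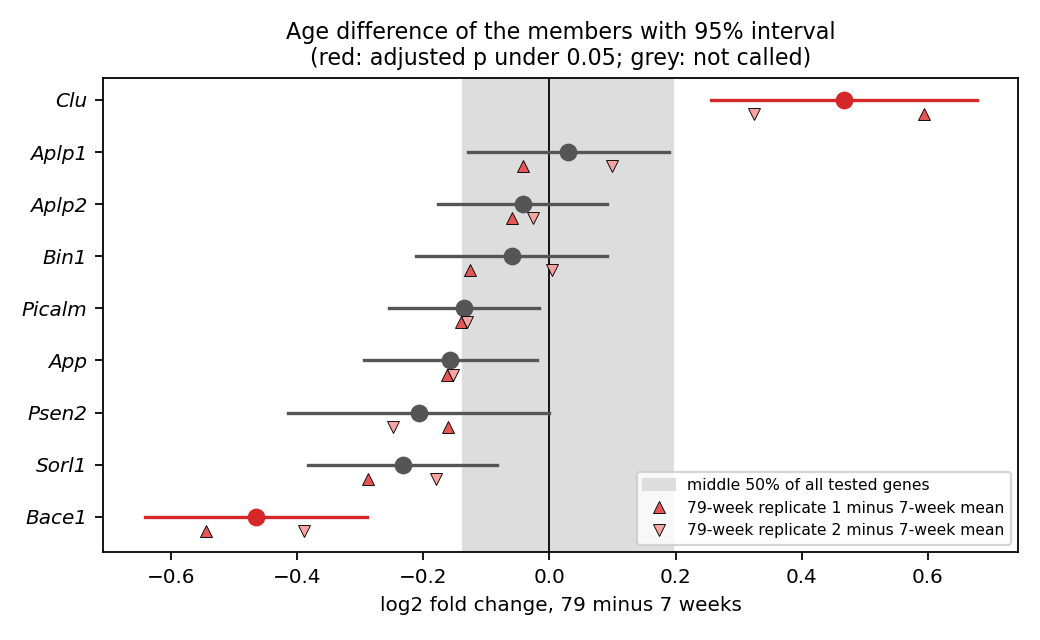
Log2 fold change, 79 minus 7 weeks (horizontal axis), for each of the 9 genes with its 95% interval (bars), in red where the adjusted p was under 0.05, with triangles for each 79-week library minus the 7-week mean and a grey band for the middle 50% of all tested genes. Bace1 at -0.47 and Clu at 0.47 lie farthest from 0 among the 9. App, Psen2 and Sorl1, which were not called, also lie outside the band from -0.14 to 0.20. Their intervals lie below 0, that of Psen2 only just.

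Sorl1, Picalm and Bin1 act in the sorting and uptake of membrane proteins. Sorl1, a receptor that binds App and returns it to the Golgi and cell surface, was at 1239 and 1189 CPM at 7 weeks and at 994 and 1071 CPM at 79 weeks. The highest old library was 118 CPM below the lowest young one. The means were 1214 ± 35.7 and 1032 ± 54.1 CPM (SD, n = 2), with a log2 fold change of -0.23 (SE 0.06) and a change of -14.9% with a 95% interval of -23.3% to -5.56%. This missed the threshold in edgeR (adjusted p = 0.0663). Sorl1 also missed it in edgeR with each other scaling, with a filter on CPM and with the replicate block (adjusted p from 0.0529 to 0.112). DESeq2 (adjusted p = 0.00425), limma-voom (0.0441), edgeR with robust dispersions (0.0427) and edgeR without the low-count filter (0.0178) called it lower, as did edgeR without 79-week replicate 2 (0.0108). It was at -0.18 and not called once 79-week replicate 1 was left out, whose choroid plexus markers were high (edgeR adjusted p = 0.166).

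Picalm, a clathrin assembly protein, was at 203 and 192 CPM at 7 weeks and 179.5 and 181 CPM at 79 weeks. The old libraries lay close together and below the young ones. The log2 fold change was -0.14 (SE 0.05, 95% interval -0.25 to -0.02), which was not called (edgeR adjusted p = 0.140). Snap91, its relative at nerve terminals, was at 339 ± 2.44 and 314 ± 0.26 CPM (SD, n = 2; log2 fold change -0.11, edgeR adjusted p = 0.215).

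Bin1, an amphiphysin that bends and tubulates membranes, was at 270.0 and 248 CPM at 7 weeks and 237 and 259 CPM at 79 weeks. The ages overlapped, and the log2 fold change was -0.06 (SE 0.06, edgeR adjusted p = 0.607) with an interval of -0.21 to 0.09. In mouse brain Bin1 is made by oligodendrocytes as well as neurons, and the library with the lower Bin1 level at 79 weeks, replicate 1, was also the one with the lower summed myelin markers (3904 against 5469 CPM). Without it the log2 fold change of Bin1 was 0.0045. The part of the myelin markers was not tested. Amph, the neuronal amphiphysin, was at 243 ± 1.43 and 215 ± 11.7 CPM (SD, n = 2) and was not called (log2 fold change -0.18, edgeR adjusted p = 0.0854).

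The clathrin coat and endocytosis list, which includes Picalm and Bin1, had 0 higher, 2 lower and 23 not called of 25. This share of calls was near the 8.84% of all tested genes. Its log2 fold changes were below 0 for 22 of 25 genes, where 48.3% of all tested genes were below 0, and its median was -0.14 against 0.01 over all tested genes. Neuron markers were lower in the same libraries, with 10 of 10 granule neuron markers and 7 of 10 Purkinje cell markers below 0 and medians of -0.28 and -0.18, and their part was not tested. The 2 that fell were Hip1, which links clathrin to actin, from 109 ± 1.48 to 85.4 ± 6.33 CPM (log2 fold change -0.35, edgeR adjusted p = 0.022), and the endophilin gene Sh3gl1, from 61.5 ± 2.83 to 49.5 ± 1.05 CPM (-0.31, edgeR adjusted p = 0.0389). Without 79-week replicate 1 the log2 fold change of Hip1 was -0.28. Sh3gl1 was not called with DESeq2, with library size scaling or without 79-week replicate 1. In the retromer, the coat that carries Sorl1 and its cargo out of endosomes, and its sorting nexins, 0 of 11 genes were called in edgeR, with 3 at an unadjusted p under 0.05. DESeq2 and limma-voom also called 0. Named from this list are Vps26b, at 183 ± 3.39 and 158 ± 9.38 CPM (SD, n = 2; log2 fold change -0.22, edgeR adjusted p = 0.0569), and Snx27, at 153 ± 3.96 and 139 ± 4.54 CPM (-0.13, edgeR adjusted p = 0.150). Vps26b was called lower in edgeR with robust dispersions (adjusted p = 0.0354), without the low-count filter (0.00444) and without 79-week replicate 2 (0.0166).

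Clu encodes clusterin, also called apolipoprotein J, which in brain is secreted chiefly by astrocytes. It was at 466 and 449.9 CPM at 7 weeks (7479 and 9329 reads) and at 691 and 573 CPM at 79 weeks (13366 and 13280 reads). Both old libraries were above both young ones, by 108 CPM at the nearest pair, and the old libraries differed from each other more than the young ones did. Clu rose from 458 ± 11.2 to 632 ± 83.4 CPM (SD, n = 2 per age), a 1.38-fold rise with a log2 fold change of 0.47, a standard error of 0.09 and an adjusted p of 0.0238 in edgeR's quasi-likelihood test. The 95% interval of the change was 19.4% to 59.9%.

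The higher of the old libraries, 79-week replicate 1, was the one high in choroid plexus markers, and ependymal markers summed to 43.1 CPM in it against 15.8 in 79-week replicate 2 and 9.46 and 8.15 in the 7-week libraries. None of the 7 tested choroid plexus genes of 12 listed was called in edgeR, with 7 at an unadjusted p under 0.05, and Folr1, one of the 12, was at 0 in both 7-week libraries. Without this library the log2 fold change of Clu was 0.33 and was called (edgeR adjusted p = 0.00486), with Clu at 573 CPM in the remaining old library. Of 10 markers of Bergmann glia and astrocytes 2 rose, 1 fell and 7 were not called, where 8.84% of all tested genes were called. Their sums were 6261 and 6811 CPM at 7 weeks and 5983 and 6335 CPM at 79 weeks. The part of the choroid plexus, ependymal and astrocyte markers in the Clu result was not tested. Leaving out 7-week replicate 1 ended the call of Clu (log2 fold change 0.49, edgeR adjusted p = 0.186), and so did leaving out 7-week replicate 2 (0.44, adjusted p = 0.153).

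**Figure D3:**
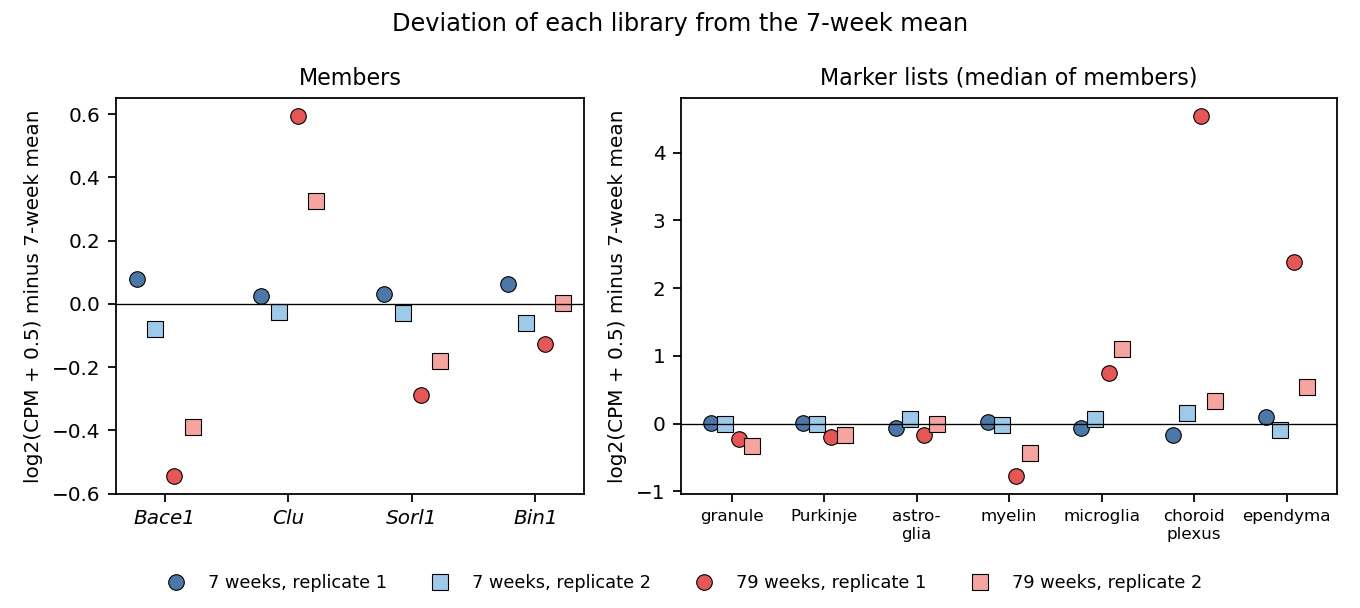
Each library's deviation from the 7-week mean, in log2(CPM + 0.5), for 4 of the genes (left) and for the median gene of 7 cell type marker lists (right, on a wider scale), with the same symbols per library. In 79-week replicate 1 the choroid plexus list stands at 4.54 and Clu at 0.59, and in 79-week replicate 2 they stand at 0.34 and 0.32.

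Other carriers and receptors of lipid and App were counted with Clu and Sorl1. In the list of sortilins, lipoprotein receptors and apolipoproteins 3 rose, 0 fell and 12 were not called of 15, where 8.84% of all tested genes were called. The median log2 fold change was 0.04. Besides Clu, Apoe, the main lipid carrier of brain, rose from 1059.97 ± 51.5 to 1498 ± 68.1 CPM (SD, n = 2; log2 fold change 0.50, SE 0.07, edgeR adjusted p = 0.00903). Its 79-week libraries were at 1450.3 and 1547 CPM, with the lower value in the library high in choroid plexus markers. Sorcs2, a neuronal receptor related to Sorl1, rose from 15.3 ± 1.87 to 25.7 ± 5.61 CPM (0.75, SE 0.16, edgeR adjusted p = 0.0327).

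App adaptors and modulators of its processing had 1 higher, 2 lower and 14 not called of 17 tested, where 8.84% of all tested genes were called. The median log2 fold change was -0.06. Apba1, also called X11 or Mint1, an adaptor that binds the App tail, fell from 259.8 ± 8.02 to 216 ± 1.84 CPM (SD, n = 2; log2 fold change -0.27, edgeR adjusted p = 0.0204). Itm2c, a BRI family protein that binds App and restrains its cleavage, rose from 343 ± 20.7 to 436 ± 19.4 CPM (0.34, edgeR adjusted p = 0.0227). Its relative Itm2a fell from 31.1 ± 1.25 to 23.4 ± 1.25 CPM (-0.41, edgeR adjusted p = 0.0338), and was not called with DESeq2 or without 79-week replicate 1. Among enzymes that degrade amyloid-beta 1 rose, 0 fell and 5 were not called of 6 tested, against the same 8.84%, with a median of 0.11. The gene that rose was that of the lysosomal protease cathepsin D, Ctsd, from 259 ± 3.69 to 350.1 ± 17.7 CPM (0.44, edgeR adjusted p = 0.00833).

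Of 26 other genes named by human Alzheimer association studies 23 were tested, and 4 rose, 2 fell and 17 were not called. Of all tested genes 8.84% were called, 4.17% higher and 4.68% lower. The median log2 fold change of the list was 0.03. Ptk2b, which encodes a calcium-responsive kinase, was at 2.86 and 3.04 CPM at 7 weeks and 19.7 and 20.3 CPM at 79 weeks (log2 fold change 2.76, SE 0.14, edgeR adjusted p = 0.00113). The microglial receptor genes Trem2 and Cd33 rose by 1.40 each on the log2 scale (edgeR adjusted p = 0.0257 and 0.031), from 2.84 ± 0.49 to 7.52 ± 2.37 CPM and from 1.16 ± 0.21 to 3.05 ± 0.14 CPM (SD, n = 2). Cd33 was not called with DESeq2 (adjusted p = 0.0662). Of 11 microglial markers 8 rose and 0 fell, where 4.17% of all tested genes rose. Their sums were 150.4 and 167 CPM at 7 weeks and 265 and 323 CPM at 79 weeks, and their part in the rises of Trem2 and Cd33 was not tested. Adamts4, a matrix protease of oligodendrocytes, fell from 74.4 ± 7.61 to 51.1 ± 7.74 CPM (log2 fold change -0.54, edgeR adjusted p = 0.0322), and myelin markers were lower in the same libraries, whose part was not tested. Without 79-week replicate 1 the log2 fold change of Adamts4 was -0.39.

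Read as a set, the 9 genes had a median log2 fold change of -0.14, against 0.01 over all tested genes. Of the 9, 7 were below 0, where 48.3% of all tested genes were below 0. Apart from Clu, 6 genes were lower in both old libraries than in either young one, namely App, Aplp2, Psen2, Bace1, Picalm and Sorl1. With Clu this makes 7 of 9 genes whose ages did not overlap, against 57.7% of all tested genes, counted in either direction. An unadjusted p under 0.05 was reached by 6 of 9, where 26.7% of all tested genes reached it. The 9 genes were listed with earlier results of these data known, so these shares describe them and do not test them as a set. The 79-week libraries did not deviate equally. Replicate 1 lay farther from the 7-week mean than replicate 2 for Bace1 (-0.54 and -0.39 on the log2 scale), Clu (0.59 and 0.32) and Sorl1 (-0.29 and -0.18), and nearer to it for Psen2 (-0.16 and -0.25). App and Picalm had nearly equal deviations in both, at -0.16 and -0.15 for App and -0.14 and -0.13 for Picalm.

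The genes whose profile over the 4 libraries was most like that of App, among 10089 other named genes with at least 10 CPM, were Trappc8, Raly and Vps52. Their Euclidean distances from App in centred log2(CPM + 0.5) were 0.0086, 0.0119 and 0.0127, with log2 fold changes of -0.16, -0.16 and -0.17. None of them was called.

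**Figure D4:**
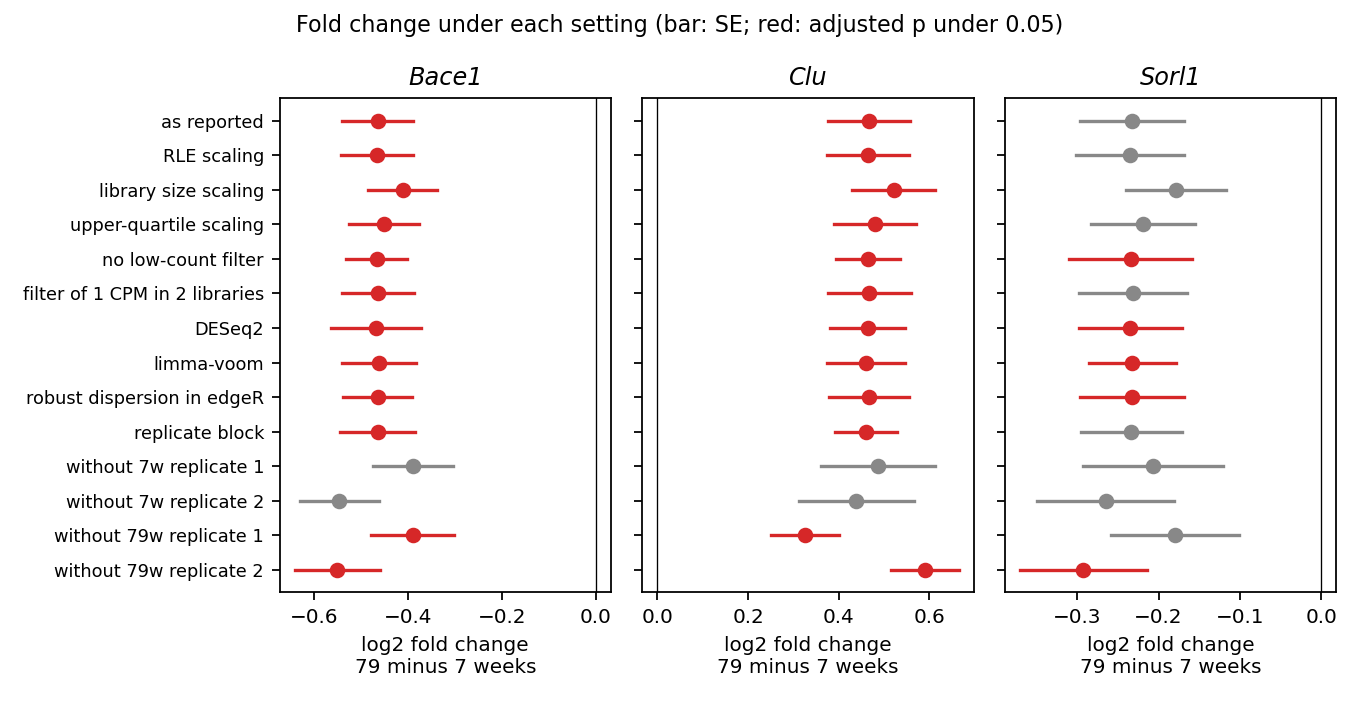
Log2 fold change with its standard error (horizontal axis) of Bace1, Clu and Sorl1 as reported and under 13 alternative settings (rows), in red where the adjusted p was under 0.05. Bace1 and Clu lose their call only where a 7-week library is left out, and Sorl1 is called in 5 of the 13 alternatives.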

How the data were processed

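The 4 cerebellum RNA-seq libraries were prepared, per the labels, from Trizol RNA using a Universal Plus mRNA-Seq kit. The authors deposited raw counts of reads for each Ensembl gene identifier. The submitters' processing notes name cutadapt, STAR, HTSeq and build mm9, without versions. Neither the annotation release nor the strand setting is given there. The 5 HTSeq summary lines per file were taken off. Multiply aligned reads, which HTSeq set aside, made up 8.02% to 8.25% of a library. Symbols matched 32919 identifiers.

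Genes were kept by filterByExpr (minimum count 10, total 15) in edgeR 4.0.16 under R 4.3.3, scaled by TMM and tested by the quasi-likelihood F test, 79 minus 7 weeks, without covariates. Standard errors are the log2 fold change divided by the square root of F, and 95% intervals use its degrees of freedom. Tested on simulated counts for this comparison (15391 genes), the procedure called 198 of 200 genes changed 2-fold and 12 unchanged ones. The changed genes were drawn only from genes above a minimum of total reads, and all genes were given the same dispersion. The simulation therefore does not describe smaller changes, genes with few reads or genes with a wider spread. Alternatives were other scalings and filters, DESeq2 1.42.0, limma-voom (limma 3.58.1), robust dispersions, a replicate block and each library left out, which leaves 1 library at an age that is assumed to vary like the others. A crossed block and DESeq2 without each library were added after seeing the data.

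The members and lists were chosen with earlier results of these data known. Named besides the 9 genes are up to 4 called genes per list by smallest adjusted p, or the 2 with the highest CPM where none was called, with Snap91, Amph, Bace2 and Apoe. Ace, Aph1b, Folr1, Mme and Rnf214 are also named, chosen after seeing their values, and some results of the naming rule are not reported here. Promoter sequences are from RefSeq, build GRCm38.p6; the count files give no coordinates.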

Additional observations from a re-analysis of the deposited data

How the results depend on the processing

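The number of genes called was 1352 as reported, 3051 without the low-count filter, 2014 with the crossed block, and 0 to 2425 when a library was left out. DESeq2 called 235 and 421 genes without 7-week replicates 1 and 2, and 379 and 654 without 79-week replicates 1 and 2. The number of the 9 genes called was 2 as reported, 2 or 3 under each alternative that kept all libraries, and 0 to 3 when a library was left out. It was 0 without either 7-week library in edgeR, and in the same 4 DESeq2 fits it was 0, 2, 1 and 3. There Bace1 lost its call without replicate 1 of either age (adjusted p = 0.194 and 0.0642), and Clu without 7-week replicate 1 or 2 (adjusted p = 0.522 and 0.545). The causes were not tested.

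Bace1 and Clu kept their direction in all 13 alternatives chosen at the outset, with log2 fold changes from -0.55 to -0.39 and from 0.33 to 0.59, as did App, Psen2, Picalm and Sorl1. Signs turned for genes near 0. Aplp2 was at 0.012 with library size scaling. Aplp1 was at -0.005 and -0.047 when 7-week replicate 1 or 79-week replicate 2 was left out (-0.0074 and -0.0497 in DESeq2), in a range of -0.047 to 0.099 over the libraries left out. Bin1 was at 0.0045 without 79-week replicate 1 (0.0016 in DESeq2), in a range of -0.132 to 0.0045. Library size scaling raised the share of calls that were higher from 47.1% to 65.1%. With the replicate number as a block, 1396 genes and 2 of the 9 were called, and no call among the 9 changed. Same-numbered libraries correlated at -0.106 in their deviations, and nothing in the labels pairs them. Of the 13 called genes named from the lists, 0, 1, 11 and 13 remained called in edgeR without 7-week replicates 1 and 2 and 79-week replicates 1 and 2. DESeq2 called 10 of the 13 with all libraries and 3, 5, 6 and 6 in those omissions.

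Each of the 9 genes had at least 488 reads in each library, and each age had 2 libraries, which limits the precision of the spread.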

Other observations

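Ace, which encodes a peptidase that can degrade amyloid-beta, was at 18.5 and 21.4 CPM at 7 weeks and at 83.3 and 28.0 CPM at 79 weeks. The high value was in replicate 1, whose choroid plexus markers were high, and Ace was not called (log2 fold change 1.47, SE 0.44, edgeR adjusted p = 0.0795). It was called higher in edgeR with the replicate block, with the crossed block and without the low-count filter. The call was also made with either 79-week library left out, replicate 1 included. Another amyloid-beta peptidase gene, Mme, was between 0.22 and 0.58 CPM in the 4 libraries and was not tested.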
